A study of Mus musculus with 2 samples.

Results

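The DNA methylation of 32 germline genes, which are active in germ cells and silent in most somatic cells, was followed in mouse embryonic fibroblasts (MEFs) with and without oestrogen receptor β. The genes were chosen by name from 22380 protein-coding genes of the annotation, in 4 groups by role: regulators of germ cells and testis proteins, the piRNA pathway, the synaptonemal complex with the chromosome axis, and cohesin with recombination. All positions in the gene body and in 2 kb before the gene start were taken on genome build NCBIM37 (mm9), and the promoter was set as 1 kb on each side of the gene start. Of the 826937 cytosines covered in both libraries, 711 lay in these regions, and they reached 30 of the 32 genes.

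The study compared MEFs derived from wildtype mice (wt) with MEFs from mice of the genotype ESR2 -/- (βerko), which are null for the receptor. Both came from the strain C57BL/6, and the labels give no treatment. Methylation was measured by reduced representation bisulfite sequencing (RRBS), in which the enzyme MspI cleaves DNA at CCGG, bisulfite converts the unmethylated cytosines of fragments within a size range, and those that resist conversion count as methylated. There was 1 library per genotype, made from 3 pooled batches of DNA, and how many animals or cultures stood behind a batch was not given in the sources used here. No replicates existed, so no difference below could be set against a spread between cultures, and genotype and library cannot be told apart.

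In the mouse embryo, the promoters of many germline genes gain DNA methylation around the time of implantation, and this methylation is a main lock on these genes in somatic cells. In primordial germ cells it is erased, and the genes for meiosis and for the defence against transposons can then be used. The promoters of this class are often rich in CpG, although most CpG-rich promoters of other genes stay free of methylation in all tissues.

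Before the values, 4 stretches are shown that were less methylated in βerko. Large differences between the libraries, or positions with deposited read numbers, lay in them. Each is written 5′ to 3′ on the strand of its gene from NCBIM37, and capitals mark the CpGs that were covered in both libraries. The Tdrd6 stretch is coding sequence of the first exon (chr17:43766918-43767103, minus strand), with 11 of its 17 CpGs covered. The Sycp2l stretch lies upstream of the gene (chr13:41209546-41209615, plus strand), with 4 of 4 CpGs covered. The Smc1b stretch is intronic (chr15:84962197-84962258, minus strand), with 3 of 7 CpGs covered, and the Dazl stretch is intronic as well (chr17:50432218-50432334, minus strand), with 19 of 19 CpGs covered.
Tdrd6: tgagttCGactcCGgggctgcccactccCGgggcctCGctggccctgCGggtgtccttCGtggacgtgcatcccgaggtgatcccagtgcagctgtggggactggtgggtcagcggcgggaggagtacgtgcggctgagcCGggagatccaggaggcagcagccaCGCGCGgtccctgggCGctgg
Sycp2l: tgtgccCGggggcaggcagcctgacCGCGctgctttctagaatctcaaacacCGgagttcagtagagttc
Smc1b: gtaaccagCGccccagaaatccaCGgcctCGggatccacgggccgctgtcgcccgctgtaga
Dazl: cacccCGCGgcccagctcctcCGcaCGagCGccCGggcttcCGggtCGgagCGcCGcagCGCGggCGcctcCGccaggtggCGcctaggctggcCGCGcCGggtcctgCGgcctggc
Averaged over covered positions, methylation of the Tdrd6 stretch was 82.6 % in wt and 32.7 % in the βerko library. In the Sycp2l stretch it was 59.4 % and 22.5 %, in the Smc1b stretch 83.3 % and 37.9 %, and in the Dazl stretch 45.8 % and 17.4 %. All 4 stretches were thus less methylated in the βerko library, and they were picked for that. Positions of Tex101 that were higher in βerko, given below, were not printed.

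Most germline promoters were methylated in both cell types. A promoter mean was taken where at least 3 positions were covered, which held for 23 of the 32 genes. A mean above 80 % was called fully methylated, below 20 % unmethylated and in between partly methylated. In wt MEFs 16 of the 23 promoters were fully methylated, 5 were partly methylated and 2 were unmethylated. In βerko MEFs 14 were fully methylated, 8 partly methylated and 1 unmethylated. Over all 13232 protein-coding promoters with the same minimum, 6.23 % were fully methylated in wt and 5.12 % in βerko MEFs, 15.4 % and 11.9 % were partly methylated, and 78.3 % and 83.0 % were unmethylated. The median of the promoter means was 89.5 % in wt and 92.5 % in βerko MEFs for the germline genes, against 1.51 % and 1.04 % for all promoters.

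**Figure D1:**
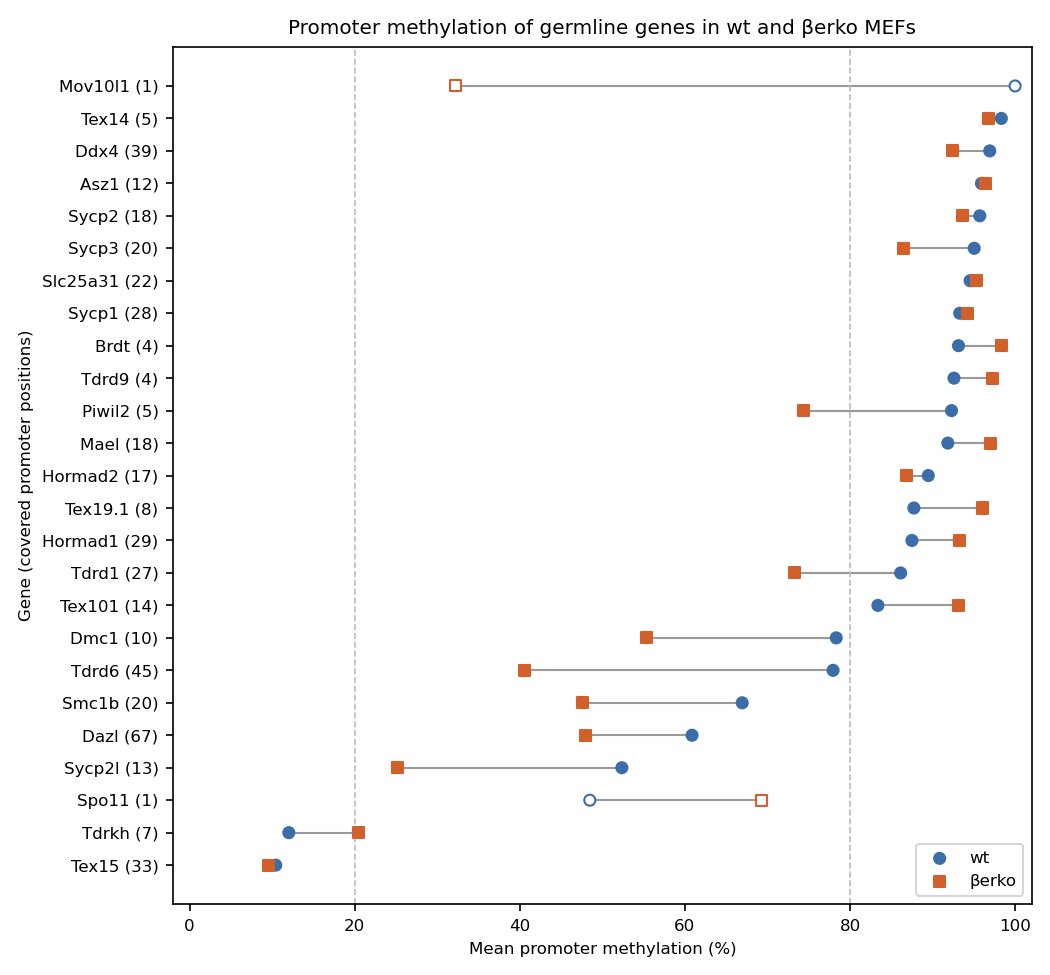
Mean methylation (%, x axis) over the covered promoter positions of each germline gene (y axis, number of positions in brackets) in wt (blue circles) and βerko MEFs (orange squares), 1 library each, with dashed lines at 20 and 80 % and open symbols for promoters with 1 position. Tdrd6, Sycp2l, Dmc1, Smc1b and Dazl lay between the dashed lines in wt and further left in βerko, while most promoters above 80 % in wt lay above 80 % in βerko as well.

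A difference of at least 30 percentage points between the promoter means was called a change. By this rule Tdrd6 was the only one of the 23 germline promoters that fell in βerko MEFs, and none rose. Over all promoters 2.40 % fell and 0.310 % rose. The median difference, βerko minus wt, was -1.54 percentage points for the germline genes and -0.268 points for all promoters. With a threshold of 20 points, Tdrd6, Sycp2l and Dmc1 were lower, 3 of 23 against 5.36 % of all promoters. All 3 were partly methylated in wt, and of all promoters in that class 27.3 % were lower by this threshold. No germline promoter was higher by 20 points, against 0.688 % of all. The counts are small, and the differences between these shares were not tested.

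The differences were not alike at different levels in wt. The 5 promoters that were partly methylated in wt, Tdrd6, Sycp2l, Dmc1, Smc1b and Dazl, all had lower means in βerko, with differences from -37.3 to -12.9 points and a median of -23.0 points. Among all 2043 partly methylated promoters 80.3 % were lower by any amount, with a median difference of -11.6 points, so that a lower mean was common in this class, while 1.42 % of them rose by at least 30 points and none of the 5 germline promoters did. The fall of Tdrd6 is 1 of 5, beside 10.6 % of the class. Of the 16 germline promoters that were fully methylated in wt, 7 were lower and 9 were higher in βerko, with differences from -17.9 to 9.71 points and a median of 0.641 points. In all 824 promoters of this class 61.9 % were lower by any amount and 12.3 % were lower by at least 30 points, which none of the 16 germline promoters was. In this class 14 of the 16 germline promoters stayed fully methylated in βerko MEFs, compared with 67.6 % of all promoters. The differences between these shares were not tested. The classes also depend on the summary. By the median of positions, Tdrd6 had 85.7 % in wt and 33.3 % in βerko MEFs, and Dmc1 had 83.3 % and 55.8 %. Both were then fully methylated in wt, and Tdrd6 fell by the threshold within that class, with a difference of -52.4 points.

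**Figure D2:**
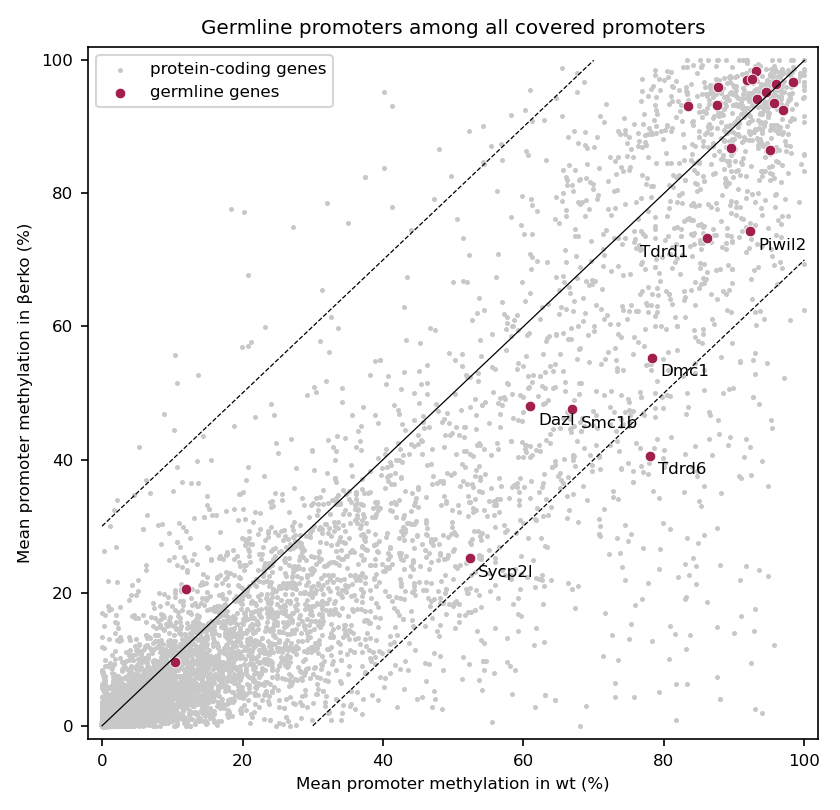
Mean promoter methylation (%) in wt (x axis) against βerko MEFs (y axis) for 13232 protein-coding promoters (grey) and the 23 germline promoters with at least 3 positions (red), with a solid line at equal values and dashed lines at differences of 30 percentage points. Only Tdrd6 lies beyond the lower dashed line, Dmc1, Sycp2l, Smc1b, Dazl, Tdrd1 and Piwil2 lie below the solid line, and most others crowd in the upper right corner.

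The regulators of germ cells and the testis proteins held both extremes of promoter methylation. Ddx4, an RNA helicase found throughout the germ cell lineage, was covered at 39 promoter positions, with a mean methylation of 96.9 % in wt (SD over positions 5.59) and 92.5 % in βerko MEFs (SD 10.9). These positions flanked the gene start on both sides, from -126 to +124. Tex14, needed for the bridges between germ cells, had means of 98.3 % and 96.8 % at 5 positions. Slc25a31, the ADP/ATP carrier of the testis, had 94.5 % and 95.3 % at 22 positions, and the testis-specific bromodomain protein Brdt had 93.1 % and 98.4 % at 4 positions. All of these were fully methylated in both libraries. The Brdt positions lay at 3 of the 61 CpGs of its window, in the intron from +507 to +666. The region at the Brdt start itself was not covered. The start of Rad51c lies 111 bp upstream of that of Tex14, so the windows of these genes overlap.

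Tex15, a protein of male meiosis, had the only unmethylated promoter mean in this group, 10.4 % in wt and 9.58 % in βerko MEFs. Its 33 promoter positions lay downstream of the gene start, from +462 to +937, and none differed by 30 points. The region at the start itself was not covered. The longest coding transcript of Tex15 starts 53806 bp further downstream, and with that start in place of the gene record's no promoter position was covered, so that no promoter was then unmethylated in βerko.

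Tex101, a surface glycoprotein of testicular germ cells, was fully methylated in both libraries, its mean over 14 positions being 83.4 % in wt and 93.1 % in the βerko library. Of its 12 positions from -194 to +97, those that differed by at least 30 points were at -184, with 100 % in wt and 60 % in βerko, and at -6, with 62.5 % and 100 %. Further downstream, 2 intronic positions were low in wt. At +455 methylation was 50 % in wt and 90 % in βerko, and at +486 the values were 14.3 % in wt and 100 % in βerko MEFs.

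Dazl, an RNA-binding protein required for germ cell development, had the most promoter positions of all 32 genes, 67, and its mean of 60.9 % in wt (SD 33.3) and 48.0 % in βerko (SD 40.8) covered stretches of different behaviour. Positions no more than 100 bp apart were joined into runs. The run from -639 to -513 had 88.8 % in wt and 91.6 % in βerko MEFs over 6 positions, and the run from +76 to +256, just behind the gene start, had 95.9 % and 97.4 % over 17 positions. Next to these methylated runs, the run from +357 to +763 had 43.5 % in wt and 22.9 % in βerko over 44 positions. The difference of 20.6 points in the last run did not reach the threshold, and the printed Dazl stretch lies within it. Of its 23 positions 20 were lower in βerko MEFs. The methylation next to the Dazl start was thus high in both libraries, and all but 1 of the promoter positions that differed by at least 30 points lay in the downstream run.

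Stra8, which germ cells need to enter meiosis, and Stk31, a Tudor protein of the testis, had no covered promoter position. In the gene body Stra8 had means of 97.5 % and 94.2 % over 8 positions, and Stk31 had 88.7 % and 96.4 % over 2 positions. Nanos3, which maintains primordial germ cells, had no covered position at all.

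The piRNA pathway, in which PIWI proteins and small RNAs silence transposons in the germ line, held the largest difference. Tdrd6, a Tudor protein of the chromatoid body in spermatids, lies on the minus strand at chr17:43752284-43767248. Its promoter mean was 77.9 % in wt (SD over positions 20.8) and 40.6 % in βerko MEFs (SD 28.7). Of its 45 promoter positions 40 were lower in βerko, 1 was higher and 4 were equal, and 27 were lower by at least 30 points. The difference lay around the gene start and in the first exon. The run from -11 to +350 fell from 77.2 % to 32.3 % over 33 positions, whereas the run from +775 to +1242 had 84.5 % in wt and 72.2 % in βerko over 22 positions. The single position upstream at -203 had 100 % and 68.8 %. In the gene body further downstream, the run from +5984 to +6065 had 76.5 % in wt and 87.7 % in βerko MEFs. The lower methylation thus did not extend to this run, but few positions of the gene were covered beyond +1242.

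Tdrd1, a Tudor protein that binds PIWI proteins, averaged 86.1 % in wt and 73.3 % in βerko MEFs and thereby left the fully methylated class. Its 27 promoter positions lay close together, from +175 to +312, yet 13 were lower, 12 were higher and 2 were equal. At 7 of them the difference was at least 30 points, all lower in βerko, for instance from 100 % to 26.9 % at +232. Piwil2, a PIWI protein, had 92.3 % and 74.4 % at 5 upstream positions and also left this class. At -306 it had 87.6 % in wt and 50 % in βerko, but at -327 it had 96.9 % and 98.3 %. The annotated start of a U11 RNA lies 497 bp downstream of that of Piwil2.

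The other promoters of the piRNA pathway were at similar or higher values in βerko MEFs. Mael, needed for piRNA production, had 91.8 % in wt and 97.0 % in βerko over 18 positions, and Asz1, a scaffold on germ cell mitochondria, had 95.9 % and 96.5 % over 12. Tdrd9, a Tudor protein with a helicase domain, had 92.6 % and 97.2 % at 4 positions, and Tex19.1, which restrains retrotransposons in germ cells, had 87.7 % and 96.0 % at 8. These 4 promoters were fully methylated in both libraries and none reached a difference of 10 points.

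Tdrkh, a Tudor protein that takes part in the trimming of piRNA precursors, was unmethylated in wt at 12.0 % and partly methylated in βerko MEFs at 20.5 %. The class changed through 1 of its 7 positions, at +328, with 46.9 % in wt and 100 % in βerko, while the others were at most 17.0 % and 20.4 %. The promoter mean of Tdrkh rose by 8.50 points, below the threshold of 30 points. Over all promoters unmethylated in wt 0.116 % rose by at least 30 points. The share of them that became partly methylated was not counted. The start of 1700040D17Rik lies 413 bp upstream of the Tdrkh start.

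The helicase Mov10l1, an early factor of piRNA production, had a single promoter position at +755, with 100 % in wt and 32.3 % in βerko MEFs, which was too little for a promoter mean. Over 16 positions of its gene body the mean was 82.7 % and 88.6 %. The PIWI genes Piwil1 and Piwil4 had no covered promoter position. Their gene bodies had 74.2 % in wt and 70.4 % in βerko over 4 positions for Piwil1, and 79.97 % and 93.1 % over 14 positions for Piwil4.

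**Figure D3:**
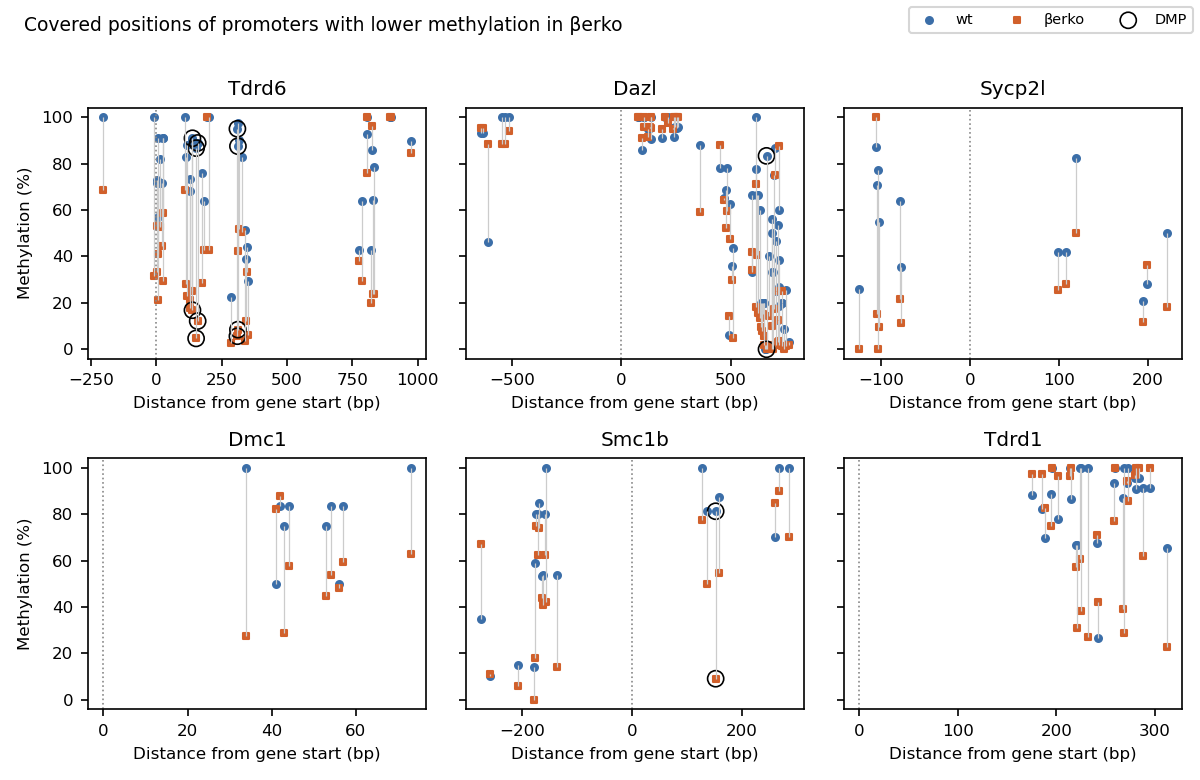
Methylation (%, y axis) of each covered promoter position against its distance from the gene start (bp, x axis) in wt (blue circles) and βerko MEFs (orange squares), grey lines joining the libraries, for 6 germline genes with lower promoter means in βerko, with differentially methylated positions (DMPs) circled. In Tdrd6 the orange squares fall far below the blue circles from the gene start to +350, in Dazl both stay near the top up to +256, except at -610 where wt is lower, and many positions separate from +357 on, and in Tdrd1 positions with and without a difference alternate.

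Among the proteins of the synaptonemal complex, which holds homologous chromosomes together in meiosis, Sycp2l differed from its relatives. Sycp1, the transverse filament, had promoter means of 93.3 % in wt and 94.2 % in βerko MEFs over 28 positions. Sycp2 and Sycp3, of the lateral elements, had 95.7 % and 93.7 % over 18 positions and 95.0 % and 86.5 % over 20 positions. These promoters were fully methylated in both libraries. The difference at Sycp3 was largest at the intronic position +218, with 92.3 % in wt and 46.5 % in βerko.

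Sycp2l, a relative of Sycp2, lies on the plus strand at chr13:41209676-41269847 and averaged 52.4 % in wt (SD over positions 22.4) and 25.2 % in βerko MEFs (SD 26.4). Of its 13 promoter positions 11 were lower and 2 were higher in βerko, and 6 were lower by at least 30 points. Methylation was lower upstream of the start and less so behind it. The run from -124 to -77, which the printed stretch contains, fell from 59.4 % to 22.5 % over 7 positions. At the CpG at -105 the strands went opposite ways, with 87.1 % in wt and 100 % in βerko on the plus strand and 71.0 % and 15.3 % on the minus strand. The run from +99 to +221 had 44.2 % in wt and 28.4 % in βerko over 6 positions. The promoter as a whole missed the threshold at -27.1 points. With the median of the positions in place of the mean the difference was -31.6 points, and in a window from 500 bp upstream to 100 bp downstream it was -34.3 points, so that its call depends on the window and the summary. From the start of its longest coding transcript, 15525 bp downstream, no promoter position was covered.

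Hormad1 and Hormad2, HORMA domain proteins of unpaired chromosome axes, were fully methylated in both libraries. Hormad1 had 87.5 % in wt and 93.2 % in βerko MEFs over 29 positions, and Hormad2 had 89.5 % and 86.8 % over 17. In Hormad1 the plus and minus strands of a single CpG, at -208 and -207, had 41.1 % and 44.6 % in wt and 84.2 % in βerko. Syce1, of the central element, had no covered promoter position and gene body means of 77.0 % and 78.2 % over 5 positions.

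**Figure D4:**
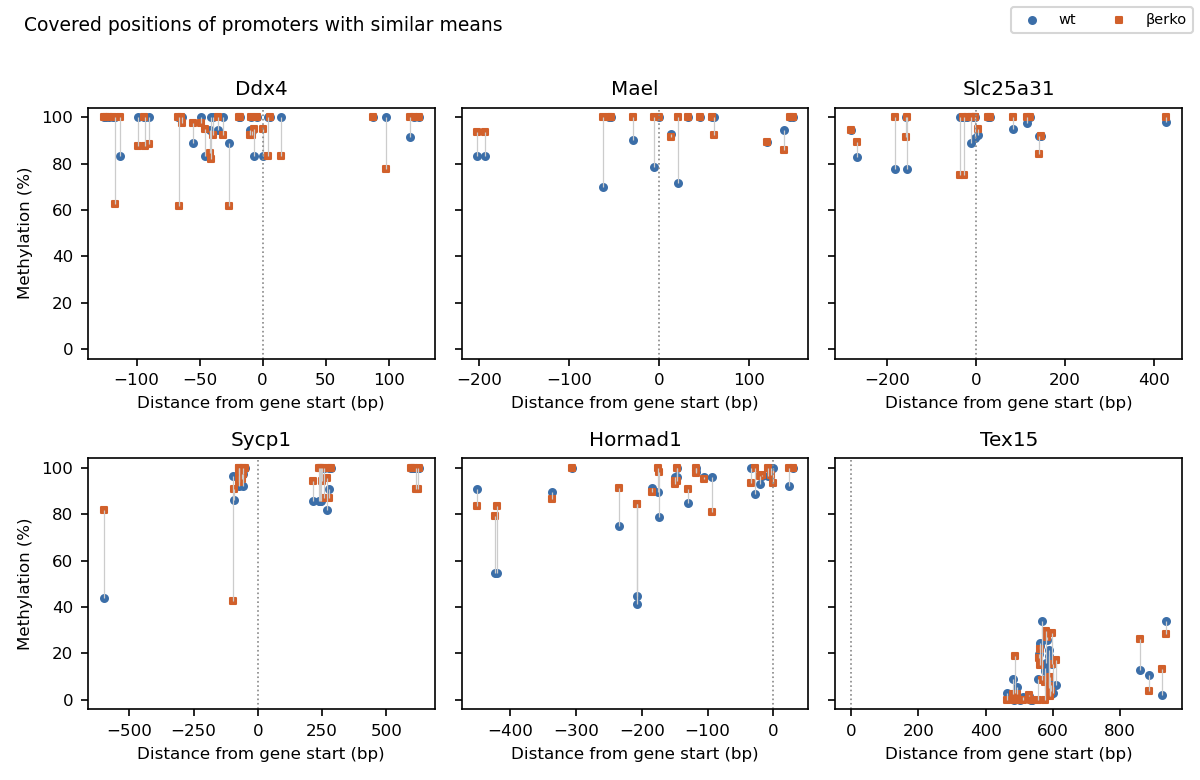
Methylation (%, y axis) of each covered promoter position against its distance from the gene start (bp, x axis) in wt (blue circles) and βerko MEFs (orange squares), grey lines joining the libraries, for 6 germline genes whose promoter means differed by less than 6 percentage points. Ddx4, Mael, Slc25a31, Sycp1 and Hormad1 lie mostly above 80 % in both libraries, while Tex15 lies below 40 % at its covered positions, all at +462 or further behind the gene start.

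In the group of cohesin and recombination, both promoters with enough positions were partly methylated in wt and lower in βerko MEFs. Smc1b, the cohesin subunit of meiosis, lies on the minus strand at chr15:84895121-84962387, and the start of Ribc2 lies 142 bp upstream of its own. Its mean was 66.9 % in wt (SD over positions 29.3) and 47.6 % in βerko (SD 28.9), and 17 of its 20 positions were lower. The run from +127 to +158 fell from 87.5 % to 47.7 % over 4 positions. The upstream run from -275 to -137, which spans the start of Ribc2, had 55.3 % and 39.7 % over 13 positions. Behind both, the run from +261 to +285 had 90 % and 81.7 %.

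Dmc1, the recombinase of meiosis, had 78.3 % in wt (SD over positions 17.2) and 55.3 % in βerko MEFs (SD 19.8), so that it was just under the fully methylated class in wt. All of its 10 positions lay in the untranslated first exon between +34 and +73, and 8 were lower and 2 higher in βerko. The largest difference was at +34, with 100 % in wt and 27.6 % in βerko, and the opposite difference was found at +41, with 50 % and 82.1 %. Spo11, which makes the breaks that start recombination, had a single promoter position at +423 with 48.5 % in wt and 69.2 % in βerko MEFs. Its gene body had 89.3 % and 89.4 % over 17 positions. With the start of the longest coding transcript, 2149 bp downstream, the promoter window held 13 positions with 91.9 % and 88.6 %. Rec8, the other cohesin subunit of meiosis in the list, had no covered position.

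In single positions, 71 of 467 germline promoter positions, or 15.2 %, were lower in βerko by at least 30 points and 13, or 2.78 %, were higher. Over all covered positions these shares were 6.87 % and 4.14 %. The germline positions and all positions were not matched by level in wt. A position below 30 % in wt cannot fall by 30 points, and the differences between these shares were not tested. The lower positions were gathered in few genes, with 27 in Tdrd6, 12 in Dazl, 7 each in Smc1b and Tdrd1, 6 in Sycp2l and 4 in Dmc1. Neighbouring positions can come from the same reads and are not independent. Of 64 runs with at least 3 positions in the germline genes, 3 fell by at least 30 points, those of Tdrd6, Sycp2l and Smc1b described above, and none rose. Of 77072 such runs in all, 4.10 % fell and 1.72 % rose, again without matching by level in wt. The count of 3 germline runs that fell is near this background.

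Read numbers were deposited for DMPs, which the study defined as positions read more than 4 times in each library with less than 20 % methylation in one of them and over 80 % in the other. Over all positions 0.700 % were DMPs with lower methylation in βerko (hypomethylated) and 0.237 % DMPs with higher methylation (hypermethylated). The germline genes held 8 DMPs among their 711 covered positions, in 4 genes and all within promoter windows. Of these, 5 in Tdrd6, 1 in Smc1b and 1 in Dazl were hypomethylated, and 1 in Tex101 was hypermethylated. These counts are small and near the shares over all positions, and the difference was not tested. The reads were tested with Fisher's exact test, two-sided, with Benjamini-Hochberg adjustment over all 826937 positions. This test compares the reads of the libraries and not the genotypes. Because DMPs are defined by a large difference in the same reads, passing depends mainly on depth and gives no separate evidence of a difference. Because PCR copies could not be recognised without molecular identifiers, the tests and the exact 95 % confidence intervals cover counting error alone.

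The 5 DMPs of Tdrd6 lay at +138 in the untranslated part and at +152, +158, +310 and +312 in the coding part of the first exon, the last 4 inside the printed stretch. At 43767096 on chromosome 17 (+152), 86.7 % of 45 reads were methylated in wt (interval 73.2 to 94.9 %) and 4.67 % of 107 reads in βerko MEFs (1.53 to 10.6 %), with an adjusted p of 2.63e-21 in Fisher's exact test. At 43766938 (+310) the shares were 95.0 % of 40 reads (83.1 to 99.4 %) and 5.63 % of 71 reads (1.56 to 13.8 %), with an adjusted p of 9.44e-20 in the exact test. At 43766936 (+312) they were 87.5 % of 40 reads and 8.45 % of 71 reads, at 43767090 (+158) 88.9 % of 45 reads and 12.2 % of 107 reads, and at 43767110 (+138) 90.9 % of 44 reads and 16.8 % of 107 reads. All 5 passed the threshold of 0.05, and their intervals in wt and βerko MEFs were far apart. Their depth was also the highest among the DMPs of the germline genes.

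The DMP of Smc1b at 84962235 on chromosome 15 (+152), in the intron and within the printed stretch, had 81.2 % of 16 reads in wt (54.4 to 96.0 %) and 9.09 % of 22 reads in βerko (1.12 to 29.2 %). It passed with an adjusted p of 0.00115 in Fisher's exact test. The DMP of Dazl at 50432262 on chromosome 17 (+662) rested on few reads, 83.3 % of 6 in wt (35.9 to 99.6 %) and 0 % of 10 in βerko MEFs, which allows up to 30.8 %, and it did not pass (adjusted p = 0.155, exact test). On the other strand of the same CpG methylation was 0 % in wt and 1.92 % in βerko. The DMP of Tex101 at 25456583 on chromosome 7 (+486) had 14.3 % of 7 reads in wt (0.361 to 57.9 %) and 100 % of 10 reads in βerko (69.2 to 100 %) and did not pass either (adjusted p = 0.0656, exact test). So 6 of the 8 DMPs, in Tdrd6 and Smc1b and all hypomethylated, passed after adjustment. Over all positions 0.642 % were hypomethylated and 0.212 % hypermethylated DMPs that passed. Most DMPs of the whole data passed, 5313 of 5787 hypomethylated and 1755 of 1960 hypermethylated ones.

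Outside the promoters, 16 germline genes had at least 3 positions in the gene body, and none changed by 30 points. Over all genes 1.58 % of the bodies fell and 0.586 % rose. The median body mean was 81.9 % in wt and 89.0 % in βerko MEFs, but the median of the differences was 1.23 points, against -0.233 points for all genes. The differences ranged from -3.73 points in Piwil1 to 14.8 points in Piwil2. Tdrd1 had body means of 81.6 % in wt and 95.9 % in βerko over 11 positions, so that its body and its promoter differed in opposite directions, and the same was seen in Piwil2 with 78.8 % and 93.5 % over 4 positions. Fully methylated were 9 of the 16 bodies in wt and 12 in βerko, against 56.9 % and 56.8 % of all gene bodies. Tex14 had the lowest body mean, 33.1 % in wt and 34.3 % in βerko MEFs over 57 positions, and it included intronic runs that were nearly free of methylation in wt. The run from +37779 to +37817 had 2.14 % in wt and 16.5 % in βerko over 18 positions, and the run from +43169 to +43207 had 1.93 % and 1.55 % over 16.

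The germline promoters were compared in sequence with all promoter windows of the same length. The 23 promoters with a mean had a median of 73 CpGs and 8 MspI sites, with a ratio of observed to expected CpGs of 0.528. The 7 genes with no covered promoter position, Nanos3, Stra8, Stk31, Piwil1, Piwil4, Syce1 and Rec8, had a median of 50 CpGs and 2 MspI sites and a ratio of 0.383. All promoters had a median of 60 CpGs, 6 MspI sites and a ratio of 0.468. The 7 genes held 1 to 4 sites for the enzyme each, against 4 to 18 in the promoters with a mean, and their methylation at the start is unknown.

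Motifs were searched on both strands of the promoter windows. CACGTG, the E-box bound by dimers of MAX, was present in 18 of the 32 windows and in 27.8 % of all. The longer form TCACGTGA, which contains it, was found in 3 windows (2.64 % of all), GGCGGGAA, a site for E2F proteins, in 5 (9.41 %), and TGACGTCA, the site of CREB proteins, in 1 (3.90 %). Among promoters with a mean, CACGTG was in 12 of the 16 that were fully methylated in wt, in 1 of the 5 that were partly methylated, which was Dazl, and in both unmethylated promoters. Over all promoters of these classes the shares were 27.4 %, 30.7 % and 33.3 %. The letters of the windows do not show whether a factor was bound in these cells.

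A wider list of germline genes was examined in the same way, with 45 of 79 matched genes having a promoter mean. In wt MEFs 15 of these were fully methylated, 17 partly methylated and 13 unmethylated, and in βerko MEFs 11, 17 and 17, beside 6.23 %, 15.4 % and 78.3 % of all promoters in wt and 5.12 %, 11.9 % and 83.0 % in βerko. The median promoter mean was 65.5 % in wt and 49.5 % in βerko, lower than in the 23 genes above, and the median difference was -1.43 points. By the threshold of 30 points 2 of the 45 fell, beside 2.40 % of all promoters, and none rose, beside 0.310 %. The count of 2 is near this background. These were Henmt1, annotated as 4921515J06Rik, the methyltransferase of piRNA ends, with 75.6 % in wt and 36.6 % in βerko over 11 positions, and Terb1, annotated as Ccdc79, which ties telomeres to the nuclear envelope in meiosis, with 88.4 % and 49.9 % over 33 positions.

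The labelled cell type was compared with markers. Of 8 ubiquitously used genes, 7 had at least 3 promoter positions and were at most 3.26 % in both libraries, and Eef1a1 had 1 position with 100 % in wt and 85 % in βerko. Of 5 fibroblast promoters with at least 3 positions Vim, Pdgfra, Pdgfrb and Fn1 were unmethylated in both, and Col1a2 had 93.6 % in wt and 48.3 % in βerko MEFs over 5 positions, while Col1a1 had 0 % in both at 1 position. The pluripotency promoters with a mean were fully methylated in wt, with Pou5f1 at 94.3 % in wt and 61.1 % in βerko, Zfp42 at 93.3 % and 72.3 %, and Tdgf1 at 91.7 % and 100 %. Dppa4 had 94.1 % and 86.7 % at 2 positions. The epithelial promoters were partly methylated in wt, with Cdh1 at 24.5 % in wt and 13.6 % in βerko, Epcam at 39.3 % and 40.2 %, and Krt18 at 61.7 % and 41.5 %. A share of other cell types in a library, germ cells included, was not tested. At the targeted gene Esr2 itself the mean over 32 positions of the gene and its upstream region was 54.0 % in wt and 44.8 % in βerko MEFs, which does not report on the deletion. Coverage outside the DMPs is unknown, so the precision of single percentages cannot be stated there.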

How the data were processed

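The authors sequenced 1 RRBS library of wt and 1 of βerko MEFs. The submitters' processing notes name CASAVA 1.4 and mm9. Reads were mapped with the Genomatix Mining Station, its version not given in the sources used here. For cytosines read in both libraries the authors deposited percent methylation values without read depth. For DMPs they deposited the count of reads per library together with an annotation that was not used here. All 826937 positions were CpG cytosines of NCBIM37, on which GENCODE vM1 gene models and the printed sequences were taken. Percent methylation was averaged over positions, without weights. The gene start was that of the gene record.

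Promoters needed at least 3 positions, classes were set at 20 and 80 %, and changes at 30 percentage points. Means of promoters, bodies and runs (gaps of at most 100 bp, chosen after the data were seen) were not tested, because there were no replicates. DMP reads were compared by Fisher's exact test, untested positions entering the Benjamini-Hochberg adjustment with a p of 1. Intervals are Clopper-Pearson intervals. Depth at the DMPs described was 6 to 45 reads in wt and 10 to 107 in βerko MEFs. The germline genes, the wider list and the markers were chosen with earlier results of these data known. Values by position were given for genes whose promoter changed or that held a DMP, and other positions were named after their values were seen. Genes of the wider list were named where their promoter changed. The sequences were those of up to 4 genes with large changes or DMPs. Alternatives were tried for the window, the gene start, the minimum of positions, strands, the summary and the thresholds. Tools were pysam 0.24.0, SciPy 1.17.1, matplotlib 3.10.9, pandas 2.3.3 and NumPy 2.4.6 under Python 3.11.15. The procedures were run on simulated data with known differences beforehand. The simulated promoter differences were set larger than that of Tdrd6, and read depth was not part of the promoter simulation. It does not show how smaller differences are called.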

Additional observations from a re-analysis of the deposited data

How the results depend on the processing

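With 1 library per genotype, no replicate could be left out, and depth limits single positions. No paired analysis was possible because there was 1 library of each genotype. Under the alternatives, 70 of 98 values stayed within 1.5 times the reported count or within 1 point of the reported median, 28 moved further and 0 reversed. In a window from 500 bp upstream to 100 bp downstream, 15 germline promoters had a mean. In wt 3 were then partly methylated and 1 unmethylated, in βerko MEFs 9 were fully and 5 partly methylated, 2 fell (Tdrd6 and Sycp2l), and the median difference was -3.59 points. From the start of the longest coding transcript, 1 promoter was unmethylated in wt and 0 in βerko, with Tex15 and Sycp2l no longer covered. With at least 30 % of the CpGs covered, 5 promoters remained, in both libraries 3 fully, 2 partly and 0 unmethylated, with a median difference of -4.46 points. With medians of positions, 3 were partly methylated in wt, 5 partly and 3 unmethylated in βerko, 2 fell (Tdrd6 and Sycp2l), and the median difference was -0.365 points. With class limits of 10 and 90 %, 12 were partly methylated and 0 unmethylated in wt. Lower promoters numbered 2 with a minimum of 1 position (Tdrd6 and Mov10l1), 3 at 20 points and 0 at 50 points. At least 10 reads left 0 hypermethylated DMPs, and DMP limits of 10 and 90 % left 1 hypomethylated and 0 hypermethylated DMPs. Tdrd6 fell in every alternative run for promoters except the threshold of 50 points.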

Other observations

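Some CpGs of the germline promoters were covered on both strands, which gives separate readings of the same CpG. In these promoters 70 such CpGs were found, and the differences between the libraries on the 2 strands lay a median of 9.78 points apart, compared with 2.6 points over all 70667 CpGs covered on both strands. At 3 of the 70 CpGs the strands were at least 50 points apart, against 1.31 % of all. The germline CpGs and all CpGs were not matched by methylation level. CpGs near 0 % in both libraries leave little room for a gap, and the comparison was not tested. In Dazl, the CpG at 50432262 on chromosome 17 had 83.3 % in wt and 0 % in βerko MEFs on the plus strand, and 0 % and 1.92 % on the minus strand. The CpG at 50432203 had 60 % and 87.5 % on the plus strand and 38.5 % and 3.57 % on the minus strand. In Sycp2l, the CpG at 41209571 on chromosome 13 had 87.1 % in wt and 100 % in βerko on the plus strand and 71.0 % and 15.3 % on the minus strand. With strands merged, Tdrd6 was still the 1 germline promoter that fell, from 77.1 % to 39.8 %.

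In the wider list, chosen here after its value was seen, the meiosis gene Mei1 lay just short of the threshold with 65.7 % in wt and 36.5 % in βerko MEFs over 17 positions, a difference of -29.1 points. The gene body runs of Piwil4 included one from +1485 to +1514 with 59.4 % in wt and 81.0 % in βerko.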
